A study of Mus musculus with 32 samples.

Results

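The genes described here are 46 members of the epidermal differentiation complex, a cluster on mouse chromosome 3 that holds most of the structural proteins of the dead outer layer of skin. They were taken by gene name, by a rule that uses no measured value: 14 Lce1 genes, 6 Lce3 genes and Lce6a, 2 Sprr1, 11 Sprr2, Sprr3 and Sprr4, 7 fused-type S100 genes, and Lor, Ivl and Crct1. The files list 55401 genes, of which 15546 were tested, and the 46 members were among them. In the GRCm38 build the members span chr3:92080271-93471980, or 1.39 megabases.

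RNA was sequenced from the epidermis of 32 mice, 1 library per mouse, in 8 groups of 4 defined by sex, genotype and exposure. All mice were on the hairless B6.129-SKH1-Hrhr background and were 10 to 14 weeks old. WT mice were compared with KO mice, their Ppard-/- littermates, which lack the nuclear receptor PPARβ/δ. UV mice received 1 dose of 120 mJ/cm2 on the back from a lamp that emits mostly UVB, below the dose that reddens skin, and were sampled 24 h later, while control mice were handled in the same way without UV and are labelled as time 0. The Hrhr background, which all groups share, disturbs hair growth, so hair follicle genes are read here in a hairless strain.

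When a keratinocyte leaves the basal layer and moves outward, it replaces its plasma membrane with a cornified envelope, a shell of proteins cross-linked by transglutaminases. Involucrin (Ivl) is laid down early as a scaffold, and loricrin (Lor), small proline-rich proteins (Sprr) and late cornified envelope proteins (Lce) are then attached to it. The fused-type S100 proteins, such as filaggrin (Flg), bundle keratin or take part in the envelope, and filaggrin is broken down to the amino acids that hold water in the skin. Sprr and Lce3 genes are known as genes of injured or inflamed skin, whereas Lor, Flg and most Lce1 genes belong to resting, well-differentiated epidermis.

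Each library held between 22919428 and 40653581 reads on genes, and the 46 members took from 0.647% to 2.14% of them. Levels below are CPM, the counts of a gene scaled to a common library size after TMM normalization, and medians are of 8 mice. Ppard itself was still read in KO mice. Without UV its level was between 87.2 and 105 CPM in WT mice (median 93.9) and between 70.2 and 88.8 in KO mice (median 77.4), and after UV it was between 252 and 326 in WT (median 279) and between 174 and 239 in KO (median 219). The WT and KO mice overlapped without UV and did not overlap after UV, where Ppard was lower in KO by 0.42 ± 0.07 on the log2 scale (adjusted p = 0.00114). Counts over the whole gene cannot show whether the deleted part is missing, so the KO label was not checked further. The labels call the tissue epidermis, and its defining keratins were abundant: Krt10, the partner of Krt1 in suprabasal cells, had a median of 33095 CPM in WT control mice and of 7488 after UV, and Krt14, a basal keratin, had medians of 5588 and 16767. KO UV mouse 54F stood apart, with a summed level of 7 fibroblast genes of 2182 CPM against a median of 11.4 in its group. It was also the highest KO UV mouse for the summed markers of skeletal muscle (2155 against a median of 63.7), of neutrophils and monocytes (450 against 80.7) and of T cells (138 against 80). Muscle RNA was not particular to 54F. Its sum was 1900 in KO UV mouse 52F, 1245 in KO UV mouse 58M, 2502 in WT UV mouse 38M and 3466 in KO control mouse 60F.

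The bases upstream of a few members are shown because neighbouring genes moved together after UV. The sequences are from RefSeq on GRCm38.p6, in which 43 of the 46 members had a promoter entry (Lce1f, Sprr2g and Crct1 did not). Letters were searched on both strands in the 250 bases before each start. They were TATAAA and the overlapping run ATAAAA, where general transcription factors can sit, and TGANTCA, a loose form of the letters bound by AP-1. The others were TGANNNNGC, the core of an antioxidant response element, and AACNGGTT, the letters bound by Grainyhead factors. The free middle base of TGANTCA takes in TGAATCA and TGATTCA beside the usual AP-1 letters TGAGTCA and TGACTCA. Capitals mark matches, and each sequence ends at the base before the start of transcription. Sprr2f and Sprr2k, which rose, lie at chr3:92364987-92365186 and chr3:92432382-92432581 on the plus strand, and Sprr1b, which rose, at chr3:92438780-92438979 on the minus strand.
Sprr2f: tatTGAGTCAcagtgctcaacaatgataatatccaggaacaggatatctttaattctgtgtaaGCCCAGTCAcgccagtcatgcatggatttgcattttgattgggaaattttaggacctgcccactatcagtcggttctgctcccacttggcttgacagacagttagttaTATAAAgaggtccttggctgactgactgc
Sprr2k: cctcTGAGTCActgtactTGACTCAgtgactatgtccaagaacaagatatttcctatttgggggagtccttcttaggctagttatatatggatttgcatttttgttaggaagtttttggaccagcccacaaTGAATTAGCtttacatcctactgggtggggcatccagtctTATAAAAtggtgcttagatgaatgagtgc
Sprr1b: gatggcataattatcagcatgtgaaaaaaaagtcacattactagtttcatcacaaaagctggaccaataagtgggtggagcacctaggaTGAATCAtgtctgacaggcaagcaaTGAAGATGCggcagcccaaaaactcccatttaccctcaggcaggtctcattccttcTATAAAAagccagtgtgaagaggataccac

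Of the Lce genes, Lce3b and Lce3d rose and lie on the plus strand at chr3:92932879-92932978 and chr3:92957290-92957389, and Lce1b and Lce1m fell and lie on the minus strand at chr3:92656927-92657026 and chr3:93019062-93019161. They are shown because Lce genes that moved in opposite directions shared the ATAAAA run at 28 to 30 bases from the start.
Lce3b: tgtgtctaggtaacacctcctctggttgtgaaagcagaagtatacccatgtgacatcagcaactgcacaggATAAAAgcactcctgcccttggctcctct
Lce3d: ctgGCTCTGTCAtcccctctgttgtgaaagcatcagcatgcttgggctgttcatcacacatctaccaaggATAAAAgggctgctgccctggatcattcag
Lce1b: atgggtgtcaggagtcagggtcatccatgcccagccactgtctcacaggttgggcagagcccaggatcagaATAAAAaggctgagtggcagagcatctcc
Lce1m: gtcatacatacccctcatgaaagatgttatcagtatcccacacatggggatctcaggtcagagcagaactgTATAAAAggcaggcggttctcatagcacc

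TGANTCA was present before 7 of the 7 Sprr2b to Sprr2k genes with an entry and before both Sprr1 genes, but before 0 of 13 Lce1, 0 of 6 Lce3 and 0 of 3 Sprr2a genes. Among all 32851 promoters of the table, 6.75% held it. It lay before 11 of 20 members that rose in WT mice and 4 of 22 that fell (Lor, Ivl, Flg2 and Flg). The match was TGAATCA before Sprr1b, Tchhl1, Flg2 and Flg and TGATTCA before Rptn, so these are not the usual AP-1 letters. TATAAA, found in 12.4% of all promoters, was before 12 of 20 members that rose and 7 of 22 that fell, and ATAAAA, found in 17% of all promoters, was before 15 of 20 and 16 of 22. TGANNNNGC was before 14 of 20 and 8 of 22 against 35.2% of all promoters, and AACNGGTT before 1 of 20 and 0 of 22 against 1.79%. Paralogs share ancestry, so these counts are not independent, and a match is a description of letters and not of a bound factor. For some members, among them the Sprr2a genes, the RefSeq start differs from the annotated gene start, and other starts were not searched. The bases searched before Sprr2a3 end at chr3:92285303, whereas its annotated gene starts at chr3:92285417.

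In WT mice, UV divided the complex into members that rose strongly and members that fell strongly. Of the 46 members, 21 were higher after UV and 24 were lower, and Crnn did not pass the test (adjusted p = 0.298). Over all genes tested, 34.5% were higher and 36.5% were lower in this comparison, so that rises and falls were both common outside the complex as well. The median log2 change was -0.55 over the members and -0.01 over all genes. The 21 members that rose had a median log2 change of 5.09 and the 24 that fell one of -2.21. In 36 of the 46 members, the 8 UV mice did not overlap the 8 control mice, against 43.4% of all genes. The counts include Sprr2k and Sprr3, which passed the filter of 1 CPM only through UV mice. They also include Sprr2a1 and Sprr2a2, which passed it only through control mice. For these genes filter and direction are linked, so their calls lend no support to the split. In bulk epidermis, fewer cells of a type and less RNA per cell cannot be told apart.

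The direction followed the order of the genes along the chromosome in 8 runs. Lor and Sprr2a1 to Sprr2a3 fell, the next 12 genes from Sprr2b to Sprr4 (chr3:92316620-92500493) all rose, the 15 genes from Ivl to Lce1l (chr3:92570902-92851286) all fell, and Lce3a to Lce3f (chr3:92925287-92993426) all rose. Crct1 and Lce1m then fell, Crnn was not called, Flg2, Flg and Hrnr fell, and Rptn, Tchh and Tchhl1 rose. Many genes of 1 subfamily lie side by side, so for most runs position and subfamily cannot be told apart. The runs include Sprr2a1, Sprr2a2, Sprr2k and Sprr3, whose direction is linked to the filter and lends no support to the runs. Within subfamilies, Sprr2a3 moved against the Sprr2 genes from Sprr2b to Sprr2i, though its UV and control mice overlapped. Lce6a moved against the Lce3 genes, and the fused-type S100 genes went both ways. Lce1m fell although Lce3 genes separate it from the other Lce1 genes, and Lor, Ivl and Crct1, which lie apart from each other, all fell.

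**Figure D1:**
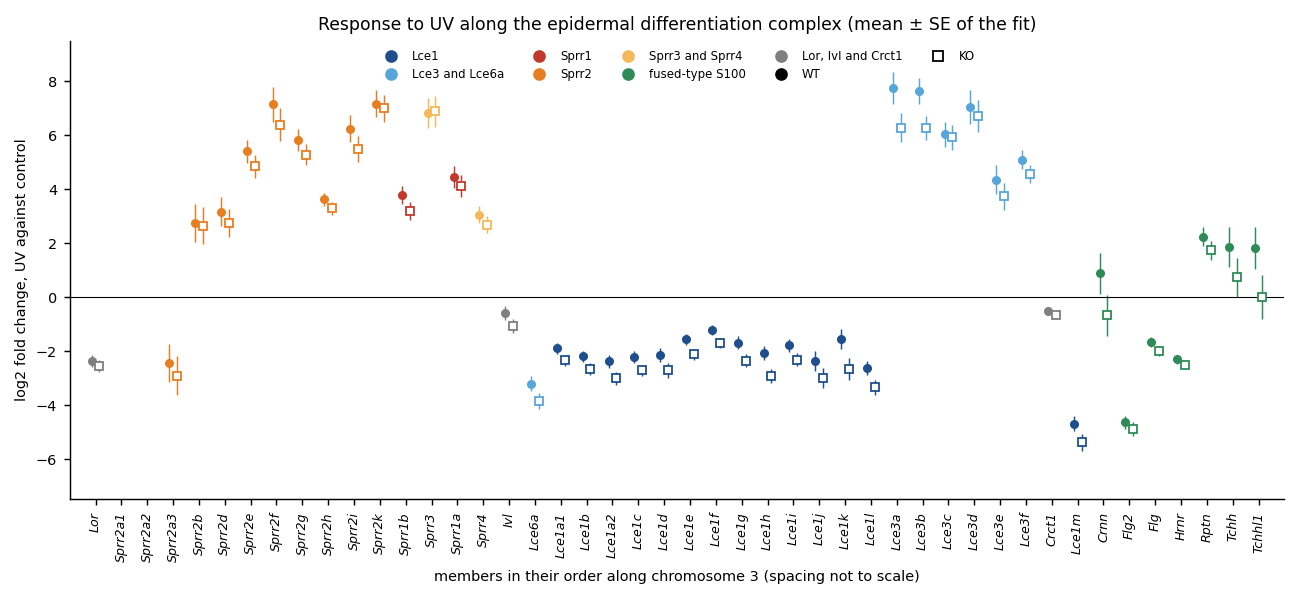
Log2 fold change after UV in WT (filled circles) and KO (open squares) for 44 of the 46 members in their order along chromosome 3, with the SE of the fit. Sprr2a1 and Sprr2a2, with few reads, are left blank. Runs of neighbours lie on the same side of 0, from Sprr2b to Sprr4 and from Lce3a to Lce3f above it and from Ivl to Lce1l below it.

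Lor, Ivl and Crct1 were all called lower after UV in WT mice. Lor encodes loricrin, the most abundant envelope protein of mature epidermis. Its level was between 1766 and 2600 CPM in the 8 WT control mice (median 2093) and between 281 and 574 after UV (median 418). No UV mouse reached the lowest control mouse, and the log2 change was -2.38 ± 0.22 (SE, n = 8 against 8, adjusted p = 1.35e-10).

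Ivl, which encodes the early scaffold protein involucrin, was between 196 and 658 CPM in control mice (median 379) and between 142 and 456 after UV (median 254). The groups overlapped for most of their range. Its log2 change of -0.58 ± 0.26 passed the test narrowly (adjusted p = 0.0488), and the call was lost in 25 of the 32 fits that left out 1 mouse and in 3 of 10 other settings. Crct1, a small cysteine-rich gene of the complex, was between 421 and 508 in control mice (median 450) and between 209 and 382 after UV (median 326). Its fall was small but the groups did not overlap, with a log2 change of -0.52 ± 0.12 (adjusted p = 0.000419).

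All 14 Lce1 genes fell in WT mice, with log2 changes from -1.22 for Lce1f to -4.69 for Lce1m and a median of -2.11. Lce1 genes encode envelope proteins added late, in resting interfollicular epidermis. Lce1a1, the Lce1 gene with the highest level per length, was between 589 and 833 CPM in control mice (median 651) and between 106 and 255 after UV (median 174), a log2 change of -1.90 ± 0.20 (adjusted p = 2.98e-09). The groups did not overlap for 13 of the 14 Lce1 genes, and they did overlap for Lce1k.

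Lce1m was between 351 and 587 CPM in the control mice (median 459) and between 6.93 and 34.5 after UV (median 14.7). This was the largest fall of an Lce1 gene, 25.8-fold, with a log2 change of -4.69 ± 0.29 (adjusted p = 7.2e-14). The next was Lce1l, at the end of the main Lce1 run, which was between 87.1 and 191 in control mice (median 138) and between 8.69 and 31.6 after UV (median 23.6), for a log2 change of -2.64 ± 0.26 (adjusted p = 5.11e-10). The remaining 10 genes (Lce1a2 and Lce1b to Lce1k except Lce1f) fell by 1.55 to 2.37 on the log2 scale. Lce6a, described after its values were seen, is a single gene at the start of the Lce run and fell by 3.21 ± 0.28 (adjusted p = 4.27e-11), from a median of 191 to 18.3.

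The markers of suprabasal keratinocytes moved with these genes. The summed level of 8 such markers was between 72042 and 84040 CPM in WT control mice and between 20782 and 36490 after UV, with Krt1 lower by a log2 change of -2.41 ± 0.23 and Krt10 by -2.17 ± 0.21 (adjusted p = 3.01e-10 and 4.5e-10). The summed level of 8 basal keratinocyte markers was between 7535 and 16767 in control mice and between 17436 and 30164 after UV. The part of these shifts in the fall of the Lce1 genes was not tested. The suprabasal list did not move as 1, since Cnfn and Dsc1 rose by 0.97 and 0.67 on the log2 scale (adjusted p = 2.25e-05 and 0.000239). The basal list did not move as 1 either. The rise of its sum in WT mice rested mainly on Krt14, with medians of 5588 CPM without UV and 16767 after it. Krt15 and Krt5 fell, with log2 changes of -6.08 and -0.50 (adjusted p = 7.82e-16 and 0.0157). The median of Col17a1 was also lower after UV, and those of Itga6, Itgb4, Lamb3 and Trp63 were higher.

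The 6 Lce3 genes, which encode envelope proteins linked to barrier repair, all rose, and most from almost nothing. Lce3a had from 0 to 15 reads per library in WT control mice, or between 0 and 0.555 CPM (median 0.155), and between 29.6 and 75 CPM after UV (median 40.6). Lce3b was between 0.074 and 1.58 in control mice (median 0.333) and between 46.3 and 132 after UV (median 85.1). Every UV mouse was far above every control mouse for both genes. The fitted log2 changes were 7.75 ± 0.59 for Lce3a (adjusted p = 3.85e-12) and 7.63 ± 0.49 for Lce3b (adjusted p = 1e-13).

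Per length, Lce3c and Lce3d reached the highest levels of the Lce3 genes. Lce3c was between 1.96 and 16 CPM in control mice (median 4.59) and between 254 and 567 after UV (median 486), a log2 change of 6.04 ± 0.46 (adjusted p = 4.44e-12). Lce3d was between 0.38 and 5.71 in control mice (median 0.696) and between 169 and 367 after UV (median 246), a log2 change of 7.04 ± 0.63 (adjusted p = 8.19e-11). Lce3e and Lce3f rose by 4.35 and 5.09 on the log2 scale. Lce3c, Lce3d, Lce3e and Lce3f are partly uncertain as single genes, because only 57% to 75.9% of the 100-base windows of their transcripts occur in 1 place in the transcripts. Summed, the 4 genes were between 3.78 and 30.8 in control mice and between 481 and 1056 after UV, a log2 change of 6.01 ± 0.49 (adjusted p = 1.37e-11).

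Sprr1a and Sprr1b had the highest levels per length of all members after UV. They encode flexible cross-bridging proteins that keratinocytes make under stress. Sprr1a was between 27.5 and 191 CPM in WT control mice (median 58.9) and between 1300 and 2371 after UV (median 2087), and rose by a log2 change of 4.45 ± 0.41 (adjusted p = 1.89e-10). Sprr1b was between 50 and 212 (median 71) and then between 994 and 1667 (median 1438), a log2 change of 3.79 ± 0.34 (adjusted p = 1.03e-10). Neither gene overlapped between control and UV mice.

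The Sprr2 genes, the largest Sprr family, did not move as 1 group, and for Sprr2k, Sprr2a1 and Sprr2a2 filter and direction are linked. The 8 genes from Sprr2b to Sprr2k rose in WT mice, by 2.75 to 7.17 on the log2 scale, and the 3 Sprr2a genes fell. Sprr2h, the highest of them per length after UV, was between 24.2 and 94.8 CPM in control mice (median 58.1) and between 465 and 869 after UV (median 716), for a log2 change of 3.62 ± 0.24 (adjusted p = 2.71e-13). Sprr2d was between 14 and 184 in control mice (median 28) and between 172 and 646 after UV (median 367), a log2 change of 3.17 ± 0.54 (adjusted p = 8.22e-06). Its ranges met only because of control mouse 43M, at 184, while the next control mouse was at 53.6.

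Sprr2f and Sprr2k, whose upstream bases are printed above, had the largest changes of the family. Sprr2f was between 0.223 and 9.53 CPM in control mice (median 0.856) and between 103 and 350 after UV (median 233), a log2 change of 7.14 ± 0.65 (adjusted p = 1.32e-10). Sprr2k had between 0 and 13 reads per library in control mice (34 reads in the 8 mice) and between 399 and 1039 reads after UV, or between 14.5 and 40 CPM (median 19.4), and its fitted log2 change was 7.17 ± 0.50 (adjusted p = 4.86e-13). Sprr2k was near the limit of detection without UV, whereas Sprr2f had between 7 and 254 reads in the WT control libraries. Sprr2e, Sprr2g and Sprr2i rose by up to 6.24 on the log2 scale without overlap, and Sprr2b rose by 2.75 with overlap. Sprr2g is annotated as a polymorphic pseudogene.

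The Sprr2a genes were the members measured least surely. Only 7.51% and 7.23% of the 100-base windows of Sprr2a1 and Sprr2a2 occur in 1 place in the transcripts, and 63.8% of those of Sprr2a3. Sprr2a1 shares 88.9% of its windows with Sprr2a2, whereas Sprr2a3 shares 36.2% with Sprr2a1 and 32.6% with Sprr2a2. Sprr2a1 had 202 reads in the 8 WT control mice and 29 in the 8 UV mice, and Sprr2a2 had 57 and 1, of which control mouse 56M alone held 114 and 36. Both were called lower (adjusted p = 0.0362 and 0.00945), and no fold is given for them. Sprr2a3, described here after its values were seen, was between 8 and 278 CPM in control mice (median 45.3) and between 4.12 and 44.2 after UV (median 8.12), a log2 change of -2.44 ± 0.70 (adjusted p = 0.00309). The sum of the 3 genes gave the same change, -2.44 ± 0.71 (adjusted p = 0.00311), with overlapping groups.

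Sprr3, better known from the lining of the mouth and oesophagus, and Sprr4 were low members that rose. Sprr3 had between 0 and 5 reads per library in WT control mice (14 reads in all 8) and between 113 and 350 after UV, which is between 3.9 and 13.5 CPM (median 6.81). Its fitted log2 change was 6.82 ± 0.56 (adjusted p = 1.75e-11). Sprr4 was between 0.444 and 2.81 CPM in control mice (median 0.985) and between 4.79 and 13.4 after UV (median 9.15), with a log2 change of 3.06 ± 0.31 (adjusted p = 8.09e-10). For both, UV and control mice were apart. Krt4, Krt13 and Krt76, keratins of oral epithelium, did not reach 1 CPM in any mouse. Krt78, listed with them, was abundant, with a median of 594 CPM in WT control mice and 59.1 after UV. In KO mice its medians were 698 and 65.2.

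The fused-type S100 genes split by their place in the run. Flg2, Flg and Hrnr, whose products are linked to filaggrin and the hydration of the horny layer, fell. Flg2 was between 2219 and 5689 CPM in WT control mice (median 4159) and between 118 and 246 after UV (median 152). All UV mice were far below the controls, for a 25-fold fall or a log2 change of -4.64 ± 0.25 (adjusted p = 2.85e-15).

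Hrnr, which encodes hornerin, was between 1633 and 3588 in control mice (median 2518) and between 340 and 866 after UV (median 530), a log2 change of -2.31 ± 0.17 (adjusted p = 2.17e-12). Flg, the gene of filaggrin, was described here after its values were seen. It was between 1910 and 3506 CPM in control mice (median 2540) and between 474 and 1188 after UV (median 801), a log2 change of -1.67 ± 0.18 (adjusted p = 5.67e-09). Filaggrin-type genes are long and built of repeats, and only 28.7% of Flg windows, 32.7% of Hrnr windows and 44.5% of Flg2 windows are found once, which bears on how many reads were counted for them.

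Rptn, the gene of repetin, rose where its neighbours Flg and Hrnr fell. It was between 147 and 541 CPM in control mice (median 309) and between 899 and 2302 after UV (median 1368), a log2 change of 2.24 ± 0.35 (adjusted p = 1.8e-06), and was also described after its values were seen. No UV mouse fell within the range of the controls.

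**Figure D2:**
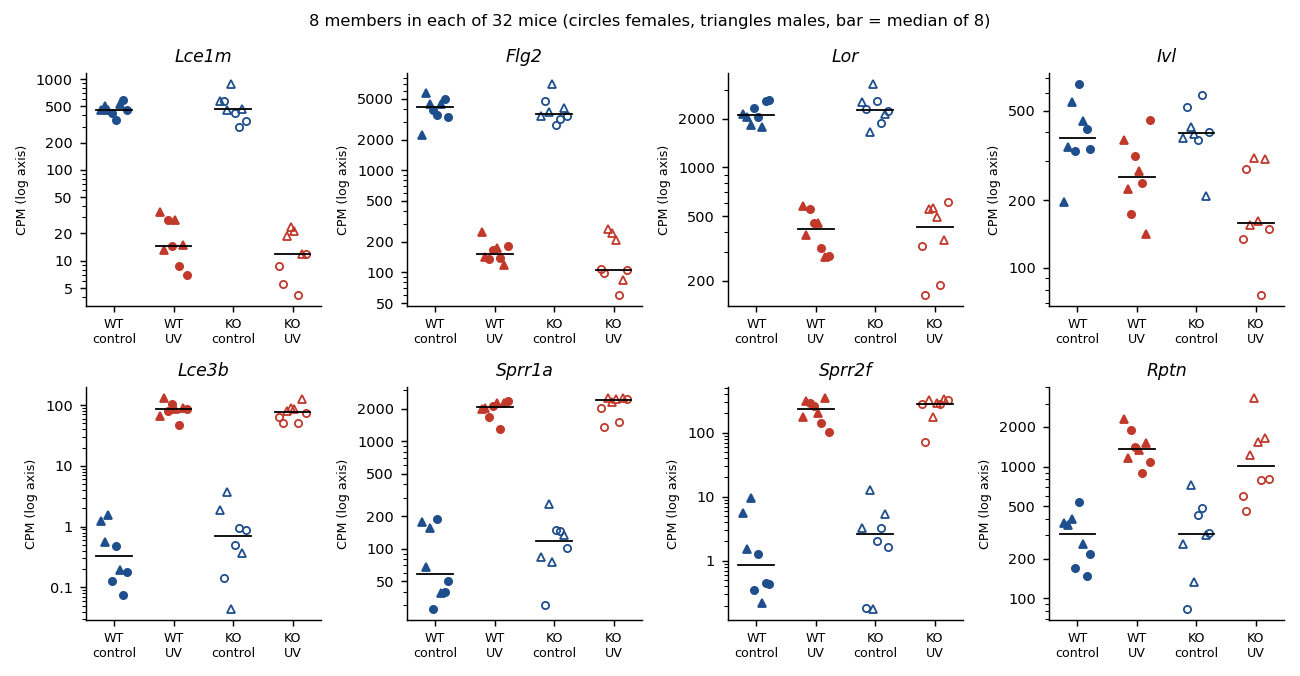
CPM (log axes) of 8 members in each of 32 mice by genotype and exposure, with circles for females, triangles for males, open symbols for KO and a bar at the median of 8 mice. In Lce1m, Flg2 and Lor every UV mouse lies below every control of its genotype, in Lce3b, Sprr1a and Sprr2f every UV mouse lies above, and in Ivl the groups overlap.

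Tchh, Tchhl1 and Crnn varied with hair follicle RNA. Trichohyalin (Tchh) is a protein of the inner root sheath of the hair follicle, and these 3 genes were described after their values were seen. Tchh was between 2.77 and 77.5 CPM in WT control mice (median 11.3) and between 17.8 and 275 after UV (median 44.8), and its log2 change of 1.85 ± 0.73 passed the test (adjusted p = 0.0261). The groups overlapped widely. In each of the 4 groups of genotype and exposure, the mouse highest for Tchh (43M, 57F, 52M and 58M) was also highest for the sum of 8 inner root sheath genes, which was between 2.45 and 197 in WT control mice and between 0.69 and 548 in WT UV mice.

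When the 5 mice with an inner root sheath sum above 150 CPM were left out, Tchh had a log2 change of 1.15 (adjusted p = 0.0846), Tchhl1 one of 0.87 (adjusted p = 0.335) against 1.82 with all mice (adjusted p = 0.039), and Crnn one of -0.66 against 0.89. The call of Tchh was also lost without mouse 57F alone (adjusted p = 0.0725) and without mouse 71F alone. The other 19 members that rose in WT were still called without those 5 mice.

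**Figure D3:**
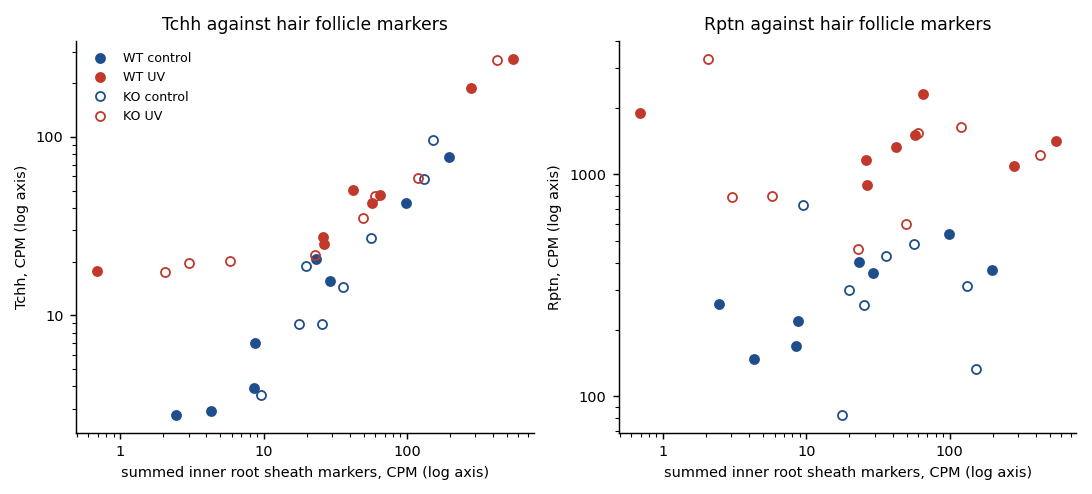
Tchh (left) and Rptn (right) in CPM against the summed level of 8 inner root sheath genes in each of 32 mice, both on log axes, red for UV, blue for control, open for KO. Tchh is highest where the follicle genes are highest, up to 275 CPM, while Rptn in WT UV mice lies between 899 and 2302 and above every WT control mouse.

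UV changed which subfamilies made up the reads of the complex. In WT control mice the fused-type S100 genes held a median of 58.6% of the summed level of the 46 members, the Lce1 genes 21%, Lor, Ivl and Crct1 19%, and the Sprr1 and Sprr2 genes 0.764% and 0.889%. After UV the Sprr1 genes held a median of 30.6% (between 26.9% and 34.5%) and the Sprr2 genes 17%, while the fused-type S100 genes held 26.8% and the Lce1 genes 6.54%. The Lce3 and Lce6a share was 1.19% without UV and 8.52% after it. The sum of all members was between 14510 and 18749 CPM in WT control mice and between 7406 and 13180 after UV.

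**Figure D4:**
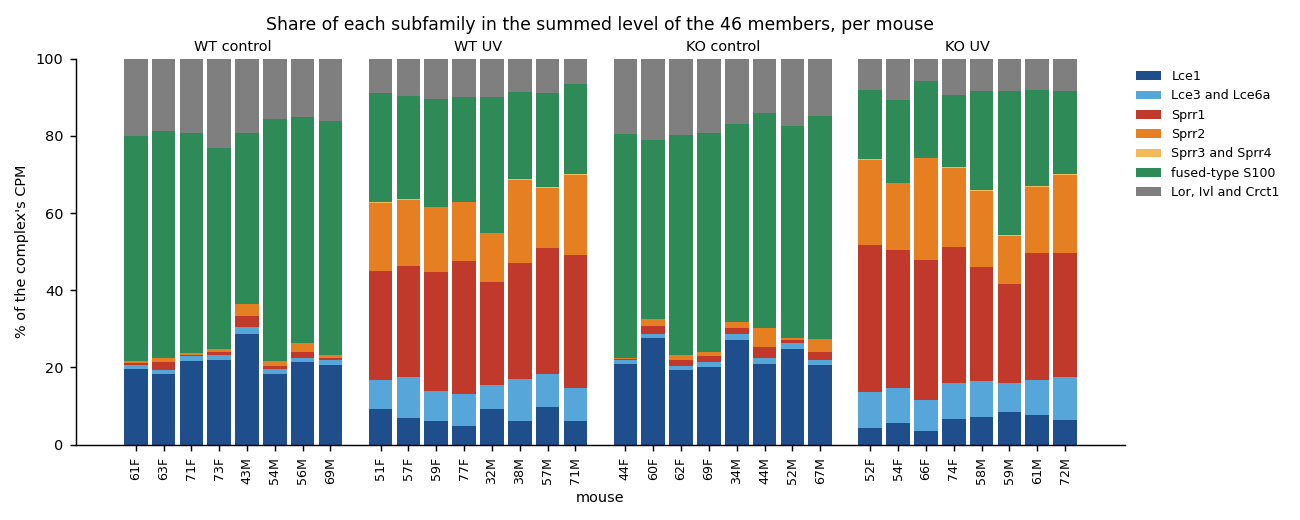
Share of each subfamily in the summed level of the 46 members, as percent, in each of the 32 mice. The Sprr1 and Sprr2 bands are thin in all control mice and are wide after UV, with Sprr1 medians of 30.6% in WT and 34% in KO.

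Per length of transcript, which allows genes to be compared with each other, the order of levels turned over. In WT control mice the highest medians were those of Lor (1176 CPM per kilobase of exon), Lce1a1 (923) and Crct1 (569). After UV they were those of Sprr1a (2590), Sprr1b (1733), Sprr2h (952) and Lce3c (858). The ranges of Lor and Lce1a1 over the mice overlapped on this scale (993 to 1462 and 835 to 1182). So did those of Sprr1a and Sprr1b (1613 to 2941 and 1198 to 2009). Both genes of a pair come from the same mice and were not compared within each mouse, so overlapping ranges do not decide their order. Flg, Flg2 and Hrnr were divided by their full exon length although at most 44.5% of their windows are found once, so their levels per length may be understated and their place below Crct1 is uncertain.

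The same comparison in KO mice asks whether the response needs Ppard. In KO mice 19 members rose and 24 fell, against 37.3% of all genes higher and 33.5% lower, and Crnn, Tchh and Tchhl1 did not pass the test. These counts again include Sprr2k, Sprr3, Sprr2a1 and Sprr2a2, whose direction is linked to the filter. In 34 of the 46 members the KO UV mice were apart from the KO control mice, against 35.1% of all genes. Lce1m was between 294 and 886 CPM in KO control mice (median 464) and between 4.19 and 23.4 after UV (median 11.9). Sprr1a was between 30.1 and 261 in KO control mice (median 117) and between 1346 and 2544 after UV (median 2406).

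The log2 change in KO was -5.38 ± 0.31 for Lce1m (adjusted p = 1.06e-14) and -4.88 ± 0.25 for Flg2 (adjusted p = 1.54e-15), where Flg2 was between 2782 and 7027 CPM in control mice (median 3569) and between 59.8 and 267 after UV (median 106). It was 4.13 ± 0.41 for Sprr1a (adjusted p = 6.31e-10) and 6.71 ± 0.61 for Lce3d (adjusted p = 1.58e-10), where Lce3d was between 0.252 and 7.68 in control mice (median 1.48) and between 123 and 401 after UV (median 252). Ivl, whose fall was marginal in WT, was between 209 and 587 in KO control mice (median 397) and between 75.7 and 307 after UV (median 159), a log2 change of -1.08 ± 0.26 (adjusted p = 0.000706). These members were called in the same direction in both genotypes.

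Lor and Crct1 also fell in KO mice. Lor was at 1651 to 3274 CPM in KO control mice (median 2256) and at 163 to 612 after UV (median 427), a log2 change of -2.54 ± 0.22 (adjusted p = 4.57e-11). For Crct1 the KO control mice ranged from 419 to 651 CPM (median 472) and the KO UV mice from 169 to 427 (median 362), and the log2 change was -0.68 ± 0.12 (adjusted p = 1.63e-05). Lor was apart between the groups and Crct1 overlapped. Lce1a1 was at 537 to 1170 CPM in KO control mice (median 771) and at 67 to 271 after UV (median 191), a log2 change of -2.34 ± 0.21 (adjusted p = 7.22e-11). For Lce1l the KO control mice ranged from 85.4 to 267 CPM (median 152) and the KO UV mice from 4.49 to 32.4 (median 20.2), and the log2 change was -3.35 ± 0.27 (adjusted p = 9.36e-12). Hrnr was at 2260 to 4021 CPM in KO control mice (median 2851) and at 256 to 918 after UV (median 512), a log2 change of -2.51 ± 0.17 (adjusted p = 5.23e-13). No UV mouse reached the controls for these 3 genes.

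Flg was at 2178 to 3023 CPM in KO control mice (median 2566) and at 359 to 1281 after UV (median 602), without overlap, and fell by 2.00 ± 0.19 on the log2 scale (adjusted p = 2.21e-10). Rptn was at 82.7 to 725 (median 309) and then at 462 to 3326 (median 1014), with overlap, and its log2 change was 1.73 ± 0.34 (adjusted p = 5.62e-05). Sprr2a3 was at 1.94 to 499 (median 77.6) and then at 2.37 to 47.4 (median 11.5), a log2 change of -2.91 ± 0.71 (adjusted p = 0.000673) with wide overlap. Repetin thus rose and filaggrin fell in KO mice too. Tchh was at 3.57 to 96.4 (median 16.7) and then at 17.4 to 269 (median 28.3), and its log2 change of 0.73 ± 0.71 did not pass the test (adjusted p = 0.371).

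The Lce3 genes rose in KO mice from low levels. Lce3a was at 0 to 2.72 CPM in KO control mice (median 0.231) and at 18.5 to 63 after UV (median 42), a log2 change of 6.28 ± 0.54 (adjusted p = 4.51e-11). For Lce3b the KO control mice ranged from 0.0439 to 3.72 CPM (median 0.688) and the KO UV mice from 50.5 to 126 (median 77.9), and the log2 change was 6.28 ± 0.44 (adjusted p = 8.88e-13). Lce3c was at 3.83 to 19.1 CPM in KO control mice (median 7.15) and at 193 to 683 after UV (median 588), a log2 change of 5.92 ± 0.46 (adjusted p = 6.36e-12). Every KO UV mouse was above every KO control mouse.

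The Sprr genes rose in KO mice as well. Sprr1b was at 26.7 to 277 CPM in KO control mice (median 178) and at 792 to 1720 after UV (median 1497), a log2 change of 3.18 ± 0.33 (adjusted p = 1.95e-09). For Sprr2d the KO control mice ranged from 2.41 to 224 CPM (median 68.6) and the KO UV mice from 126 to 619 (median 546), and the log2 change was 2.75 ± 0.53 (adjusted p = 4.56e-05). Sprr2f was at 0.176 to 12.5 CPM in KO control mice (median 2.6) and at 71.5 to 334 after UV (median 284), a log2 change of 6.38 ± 0.61 (adjusted p = 4.25e-10). Sprr1b and Sprr2f did not overlap between the groups, and Sprr2d overlapped through UV mouse 54F, at 126 CPM. Sprr2h was at 37.3 to 129 CPM in KO control mice (median 82.1) and at 540 to 939 after UV (median 736), a log2 change of 3.30 ± 0.24 (adjusted p = 1.57e-12). For Sprr2k the KO control mice ranged from 0 to 0.384 CPM (median 0.119) and the KO UV mice from 8.71 to 31.6 (median 19.1), and the log2 change was 6.99 ± 0.49 (adjusted p = 9.06e-13). Sprr3 was at 0 to 0.176 CPM in KO control mice (median 0.0354) and at 1.21 to 11.2 after UV (median 7.1), a log2 change of 6.88 ± 0.58 (adjusted p = 2.71e-11). UV and control mice were apart for all 3. Sprr4 was at 1.02 to 1.93 CPM in KO control mice (median 1.26) and at 3.37 to 15.7 after UV (median 8.67), a log2 change of 2.69 ± 0.30 (adjusted p = 6.98e-09). The control counts of Sprr2k and Sprr3 in KO mice were at most 12 and 4 reads.

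The UV response was then compared between the genotypes. In the test of genotype by UV, edgeR called 0 of 46 members and 0.765% of all genes, and 4 members had an unadjusted p under 0.05 (Lce1h, Lce1k, Lce1l and Lce3b). DESeq2 and limma-trend also called 0 members. The smallest unadjusted p was 0.0215, for Lce1h, whose difference was -0.83 ± 0.34 on the log2 scale (adjusted p = 0.182). That for Lce3b was -1.35 ± 0.63 (adjusted p = 0.238).

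The signs of this difference were uneven. It was below 0 in 45 of the 46 members, in those that rose and in those that fell, against 45.7% of all genes, with a median of -0.53 over the members and 0.04 over all genes. With RLE normalization 45 members and 50.5% of all genes were below 0. It was also below 0 in 26 of 26 cross-linkers and partners of the envelope and in 15 of 20 transcription factors. The sign was thus not particular to the members, but not all lists shared it. Among other tested genes of the complex, it was below 0 for S100a7a, S100a11, Pglyrp3, Pglyrp4, Kprp, Prr9 and 2310050C09Rik. It was above 0 for the remaining S100 genes of that list. Among the keratins it was above 0 for Krt5, Krt14 and Krt15 and below 0 for Krt1, Krt10, Krt2, Krt6a, Krt6b, Krt16 and Krt17. Krt77 changed by -3.78 on the log2 scale in both genotypes. The same control mice enter the KO against WT difference without UV, which was above 0 in 41 of 46 members and below 0 in 50.4% of all genes. Members share mice and vary together, so this count carries no test, and leaving out hair follicle-rich mice or changing the normalization did not bring a call. Differences as large as that of Lce3b were not called with 8 mice a group, so that 0 calls do not show an equal response.

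**Figure D5:**
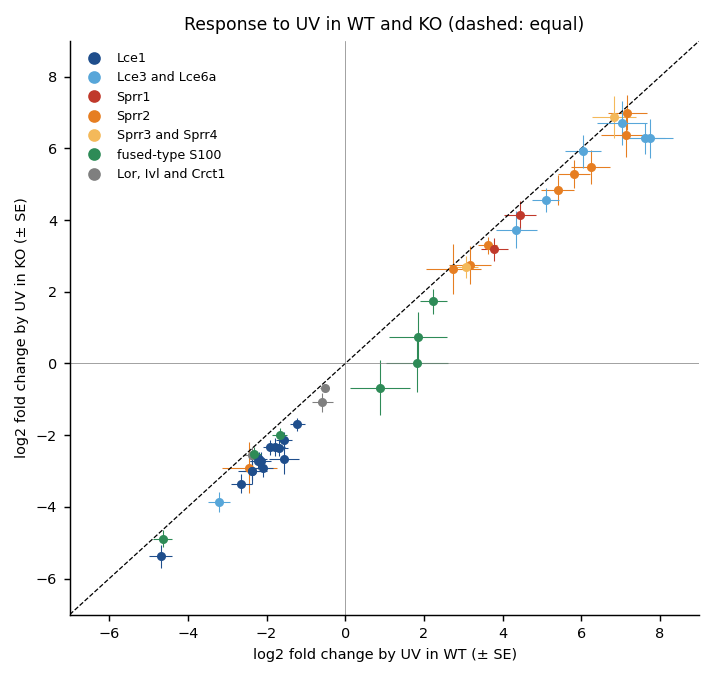
Log2 fold change by UV in WT (horizontal) and in KO (vertical) for 44 of the 46 members with the SE of each, where the dashed line marks equal change. Most points lie slightly below the line, and 0 of 46 members passed the test of the difference.

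Without UV, KO and WT mice did not differ in a member by the test: 0 of 46 were called, against 0.206% of all genes, and 1 had an unadjusted p under 0.05 (Lce3b, log2 difference 1.17 ± 0.54, adjusted p = 0.555). After UV, 0 of 46 were called, against 3.31% of all genes, and 2 had an unadjusted p under 0.05. These were Lce1k, at a log2 difference of -1.04 ± 0.39 (adjusted p = 0.126), and Lce1m, at -0.61 ± 0.26 (adjusted p = 0.182). DESeq2 and limma-trend called 0 members in both comparisons.

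Males and females were compared because the study asks how the sexes differ in their response to UV. No member passed the test of sex by UV in WT or in KO with edgeR, DESeq2 or limma-trend, and edgeR called 0% of all genes in each genotype. The change in females minus that in males was below 0 in 34 of 46 members in KO, among them 14 of 14 Lce1 (median -0.82) and 7 of 7 fused-type S100 genes, against 41.3% of all genes, and in WT it was below 0 in 20 of 46 members against 47.1%. At an unadjusted p under 0.05 there were 1 member in WT (Sprr2f) and 6 in KO (Lce1a2, Lce1e, Lce1f, Crct1, Flg and Rptn). Taken within each sex of 4 against 4 mice, all 14 Lce1 genes fell and all 6 Lce3 genes and both Sprr1 genes rose in WT males, WT females, KO males and KO females, at 60.9%, 61.3%, 61.7% and 60.7% of all genes called.

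Mean levels differed between the sexes in some groups with and without UV. Sprr2a3 had means of 141 CPM in WT control males and 26.8 in WT control females, and of 226 and 51.2 in KO control mice. Lce1m was 22.8 ± 10.4 CPM in WT UV males (SD, n = 4) and 14.6 ± 9.64 in WT UV females, after 486 ± 32.9 and 453 ± 98.7 without UV. In KO UV mice the males were at 18.8 ± 4.95 and the females at 7.59 ± 3.42, after 597 ± 200 and 410 ± 121. The sexes did not overlap after UV, but the lowest male was at 11.9 and the highest female at 11.8. Mouse 54F was among these females. For all 14 Lce1 genes the mean of the KO UV males was above that of the KO UV females, as for Lce1a1 at 230 and 111. Male means were also above female means for the Lce1 genes in each other group. The share of all genes with this sign was not computed. A sex difference in level was not tested by itself. Sprr2f was 4.22 ± 4.22 in WT control males and 0.625 ± 0.431 in WT control females, and 260 ± 83.4 and 199 ± 90.8 after UV. Rptn was 1931 ± 946 in KO UV males and 664 ± 164 in KO UV females, after 355 ± 257 and 328 ± 178. The change in females minus that in males was -1.43 ± 0.67 on the log2 scale (unadjusted p = 0.0412, adjusted p = 0.503).

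Within a group, the same mouse was often the highest or the lowest for many members of a subfamily. In KO UV mice, male 59M was the highest for 14 of the 14 Lce1 genes and female 66F the lowest for 10, and the suprabasal marker sum was also highest in 59M (42869) and lowest in 66F (13657). In KO control mice, male 44M was the highest for 8 of the 10 genes made up of Sprr1a, Sprr1b and Sprr2b to Sprr2k and for 6 of the 6 Lce3 genes, and female 44F was the lowest for 8 of those 10. For Sprr2a3 these mice were at 499 and 1.94 CPM. Mouse 54F, with the fibroblast RNA, was lowest of the KO UV mice for 9 of those 10 Sprr genes and for 3 Lce1 genes.

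With mice 43M, 44M, 44F and 54F left out, 21 members rose and 24 fell in WT, and 19 rose and 23 fell in KO. The lost call was that of Sprr2a2 in KO. The part of RNA from other cell types in the values of 54F was not tested beyond this.

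Other genes of terminal differentiation were read from lists drawn up by function. Of 17 other tested genes of the epidermal differentiation complex, mainly S100 and Pglyrp genes, 11 rose and 3 fell in WT, against 34.5% and 36.5% of all genes, and 13 rose and 2 fell in KO, against 37.3% and 33.5%. Kprp, a keratinocyte proline-rich protein of the complex, fell from a median of 1846 to 556 CPM in WT (log2 change -1.69 ± 0.20, adjusted p = 2e-08) and by -2.06 ± 0.20 in KO (adjusted p = 6.48e-10). Of 26 envelope cross-linkers and partners, 11 rose and 7 fell in WT and 9 rose and 13 fell in KO, against 34.5% higher and 36.5% lower over all genes in WT and 37.3% and 33.5% in KO, so that the WT counts were near the background. Tgm1, the membrane-bound transglutaminase that seals the envelope, rose from a median of 382 to 980 in WT, by 1.29 ± 0.08 on the log2 scale (adjusted p = 7.28e-14), and by 0.89 ± 0.08 in KO (adjusted p = 1.2e-10).

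Tgm3, a cytosolic transglutaminase, rose by 0.76 ± 0.18 in WT (adjusted p = 0.000494), and in KO its log2 change was 0.39 ± 0.18 (adjusted p = 0.0566). The difference between genotypes did not pass the test for Tgm1 (-0.40 ± 0.11, adjusted p = 0.0805) or for Tgm3 (-0.37 ± 0.25, adjusted p = 0.432).

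Of 11 keratins, 5 rose and 6 fell in WT (34.5% and 36.5% of all genes), and 5 rose and 5 fell in KO (37.3% and 33.5% of all genes). Krt14 rose by 1.70 ± 0.22 in WT (adjusted p = 7.66e-08) and 2.00 ± 0.22 in KO (adjusted p = 5.46e-09). Krt5, its partner in basal cells, fell by 0.50 ± 0.18 on the log2 scale in WT (adjusted p = 0.0157), a call that was lost without control mouse 61F or 43M and in both sets of mice left out, and was at 0.25 ± 0.18 in KO (adjusted p = 0.223). The basal pair thus did not move together.

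Of 20 transcription factors of terminal differentiation, 13 rose and 4 fell in WT (34.5% and 36.5% of all genes) and 12 rose and 5 fell in KO (37.3% and 33.5% of all genes). Grhl3, a Grainyhead factor of barrier formation, rose by 0.87 ± 0.11 in WT (adjusted p = 7.86e-08) and 0.40 ± 0.11 in KO (adjusted p = 0.00219), with a genotype difference of -0.47 ± 0.16 that did not pass (adjusted p = 0.115). Klf4, a factor needed for the barrier, rose by 0.34 ± 0.07 in WT (adjusted p = 0.000204) and 0.18 ± 0.07 in KO (adjusted p = 0.0324), where the call was lost in 10 of 32 fits that left out 1 mouse.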

How the data were processed

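The deposited values are raw read counts per gene, 1 file per mouse. Per the labels and methods, the authors made TruSeq stranded mRNA libraries (RNA quality numbers 6.4 to 8.4 in the labels, whereas the methods give a higher range), trimmed the single-end 100-base reads with cutadapt 1.8, screened them with fastq_screen and reaper, aligned them with STAR 2.5.3a and counted them with htseq-count 0.9.1. The labels give GRCm38, the methods another build name, and the strand setting of the counting is not given in the sources used here. By default this counter leaves out reads that align to more than 1 place, which lowers near-identical and repeated genes. Counting lines that name no gene stayed out of library sizes; reads in no gene were 6.8% to 9.75% of those in a gene, in none or ambiguous.

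Genes that reached 1 CPM in any mouse (15546) were kept, and their counts were fitted with the edgeR 4.0.16 quasi-likelihood test (TMM, all 32 mice, 8 group means), with Benjamini-Hochberg adjustment over all genes and a threshold of 0.05. UV in a genotype is the mean of both sexes. Of the 46 members, 42 reached the filter in control and in UV mice, Sprr2k and Sprr3 only in UV mice, and Sprr2a1 and Sprr2a2 only in control mice. SEs are the log2 change divided by the square root of F, so they follow each test and need not combine across comparisons as standard errors of independent changes would. Mice are separate animals, and control mice are shared by comparisons within a genotype.

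Members and lists were chosen with earlier results of these data known. Full values were given for the 2 members of each subfamily with the highest level, the 2 with the largest change in WT among those averaging at least 10 reads in a group, and any called between genotypes or sexes (none was). Alternatives were DESeq2 1.42.0, limma-trend 3.58.1, other normalizations and filters, leaving out each mouse, the mice of 1 genotype alone, and summed paralogs. The scripts were tested on simulated data.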

Additional observations from a re-analysis of the deposited data

Results flagged for a closer look

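Among the 80 groups of 8 mice examined (20 members in 4 groups of genotype and exposure), 8 held a mouse far from the other 7, by a gap to its neighbour above Dixon's critical share of the whole range. For normally distributed values, chance gives such a gap in about 1 in 20 groups. The values here are untransformed CPM and the groups share mice, so that rate need not hold. Whether 8 of 80 is an excess cannot be judged from it. Control mouse 43M was the highest WT control for Sprr2d, at 184 CPM against 53.6 for the next, and for Sprr4, at 2.81 against 1.55. Control mouse 44M was the highest KO control for Sprr2f (12.5 against 5.41), for Lce3a (2.72 against 0.447) and for Lce3d (7.68 against 3.58). Control mouse 52M was the highest KO control for Lce1m (886 against 573) and for Flg2 (7027 against 4717). UV mouse 54F, in which fibroblast genes summed to 2182 CPM, was the lowest KO UV mouse for Sprr2d, at 126 against 419. UV and control mice of the genotype did not overlap for Sprr4, Sprr2f, Lce3a, Lce3d, Lce1m and Flg2. For Sprr2d they overlapped, in WT through 43M, above the lowest UV mouse at 172, and in KO through 54F.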

How the results depend on the processing

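Counts of members called higher and lower by UV stayed within 1.5 times under every setting run. Leaving out 1 mouse at a time gave 19 to 21 higher and 21 to 24 lower in WT, 19 higher and 23 to 24 lower in KO, and 0 in the genotype by UV, control genotype and sex by UV comparisons. In KO against WT after UV it gave 0 to 1 lower, the 1 being without male KO UV mouse 59M.

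Signs reversed only for values that passed no test. Tchhl1 in KO, at 0.01, was -0.03 with filterByExpr, -0.04 without a filter, -0.00 with DESeq2 and -0.39 without mice 43M, 44M, 44F and 54F, a choice made after seeing the data. With 1 mouse left out it was from -0.45 (without 58M) to 0.57 and below 0 in 8 of 32 fits. Crnn in KO, at -0.67, was from -1.28 to 0.09 with 1 mouse left out and above 0 only without 52M, and in WT, at 0.89, it was -0.66 without the 5 mice richest in hair follicle RNA, also chosen after seeing the data.

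Calls that were lost in WT were those of Ivl (3 of 10 other settings, RLE, no filter and DESeq2, and 25 of 32 fits without 1 mouse, p up to 0.134), Sprr2a1 (9 of 32, up to 0.151), Sprr2a2 (1 of 32, without 63F), Krt5 (2 of 32, and both sets of mice left out), Tchh (2 of 32 and 1 of 10 other settings) and Tchhl1 (9 of 32 and 2 of 10), all adjusted p. For Tchhl1 those 2 were the mice of the genotype alone (adjusted p = 0.071) and without the mice richest in hair follicle RNA. In KO they were those of Sprr2a2, without 44M and with limma-trend, and Klf4. No paired analysis was possible because mice share no replicate numbers across groups.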
